A study of Danio rerio with 9 samples.

Results

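The genes described here code for proteins that the liver makes: the 3 fibrinogen chains (fga, fgb and fgg), the clotting factors prothrombin (f2) and factor IX (f9b), the clotting inhibitor antithrombin (serpinc1), the iron carrier transferrin (tfa), the liver fatty acid binding protein (fabp10a), a carboxylesterase (ces3) and a C-reactive protein (crp6). Their probes were taken from the arrays by the RefSeq accession that the scanner files give for each probe, with gene names from RefSeq. Of the 10 genes, 9 were represented, by 22 of the 43603 probes on the array, and no probe was matched by accession to tfa, which is therefore not analysed here. The 22 probes are 8 for fibrinogen (2 for fga, 3 for fgb and 3 for fgg), 5 for f2, 3 for ces3, 2 each for serpinc1 and fabp10a, and 1 each for f9b and crp6. All 22 were well above background on all 9 arrays.

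RNA came from whole zebrafish larvae at 5 days post fertilization (dpf), with 3 arrays for each of 3 groups. Control larvae spent 1 h in 1% DMSO and then 1 h in the vehicle. The neomycin group spent 1 h in 1% DMSO and then 1 h in neomycin at 200 µM; neomycin is an aminoglycoside antibiotic that kills the sensory hair cells of fish and mammals. The third group was placed in 50 µM tacrine, a cholinesterase inhibitor once used against Alzheimer's disease, for the first 1 h, and in the same neomycin solution for the second 1 h. A DMSO level is not stated for the tacrine solution, and no group received tacrine alone, so tacrine is always compared in larvae that also received neomycin. The labels call the 3 arrays of a group independent experiments and say nothing of how many larvae went into each, nor of strain or sex.

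Clotting proteins circulate in the plasma as inactive precursors. Thrombin, cut from prothrombin, turns fibrinogen into the fibrin of a clot. Factor IX acts upstream of it in a complex that activates factor X, and antithrombin blocks thrombin and several of the other proteases. Hepatocytes secrete nearly all of these proteins, and in mammals fibrinogen and C-reactive protein rise in the blood during the acute phase response, which interleukin 6 drives through STAT3 and C/EBP transcription factors. In zebrafish larvae of this age the liver already makes these transcripts, and fabp10a is the customary marker of hepatocytes.

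Values below are levels on a log2 scale: the log2 processed signal of a probe minus the 75th percentile of the log2 signals of its array, so that 0 stands for a probe at that percentile. A difference is the mean level of one group minus that of another, and a gene is called higher or lower at a Benjamini-Hochberg adjusted p under 0.05 from limma over all 31671 probes tested. The 75th percentile signal was 105 to 137 on the control arrays, 142 to 170 on the neomycin arrays and 151 to 226 on the arrays of both compounds, and 65.6% to 73.8% of probes were well above background. Levels correlated at r of 0.983 to 0.990 between arrays of a group and 0.972 to 0.988 between arrays of different groups over 26776 probes. The 3 arrays with the same replicate number shared a slide, and the place on the slide was the same for all arrays of a group, so that place and group cannot be told apart. The 2 comparisons with the group of both compounds share its 3 arrays, and each group serves in 2 of the 3 comparisons.

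Larvae given tacrine and neomycin had a higher level of f9b and lower levels of ces3 and crp6 than control larvae, and a lower level of crp6 than larvae given neomycin alone. These calls depended on the processing. With slide as a block, f9b, ces3 and the crp6 difference from neomycin missed the threshold (adjusted p of 0.0520, 0.0536 and 0.0672). With normexp background correction before the percentile scaling, f9b and ces3 changed sign against control, to -0.24 and 0.36. The other 2 ces3 probes were not called. The 3 fibrinogen genes had higher levels in the group of both compounds on every probe, by 0.47 to 0.83 against control, without passing the test. Levels of f2 and serpinc1 overlapped between the groups. Against control, 3 of the 22 probes were called in larvae given both compounds, 1 higher and 2 lower, where 5.92% of all tested probes were called, 3.17% higher and 2.75% lower. Against neomycin, 1 of the 22 was called, lower, where 2.67% of all probes were called and 0.868% were called lower. In neomycin against control no probe was called by limma, 2 of the 22 (both of fabp10a) had an unadjusted p under 0.05, and 0.117% of all probes were called, with 9.03% at an unadjusted p under 0.05.

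Groups that did not overlap at all were more common than calls. Against control, 9 of the 22 probes had every array of both compounds above every control array, where 12.4% of all tested probes did, and 4 had every such array below, where 16.4% did. Against neomycin, 6 probes lay wholly above, where 12.0% of all probes did, and 2 wholly below, where 13.6% did. Between neomycin and control, 1 probe (fabp10a) lay wholly below, where 7.41% of all probes did, and none lay wholly above, where 5.79% did. Probes of 1 gene read the same transcript and are not independent of each other. Taken by the brightest probe of each gene, the median difference of the 9 genes was -0.01 for both compounds against control, 0.16 for both compounds against neomycin and -0.11 for neomycin against control, beside -0.05, -0.03 and -0.01 over all 11326 genes tested. A median near that of all genes here holds differences in opposite directions, from -2.11 for crp6 to 1.14 for f9b against control.

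**Figure D1:**
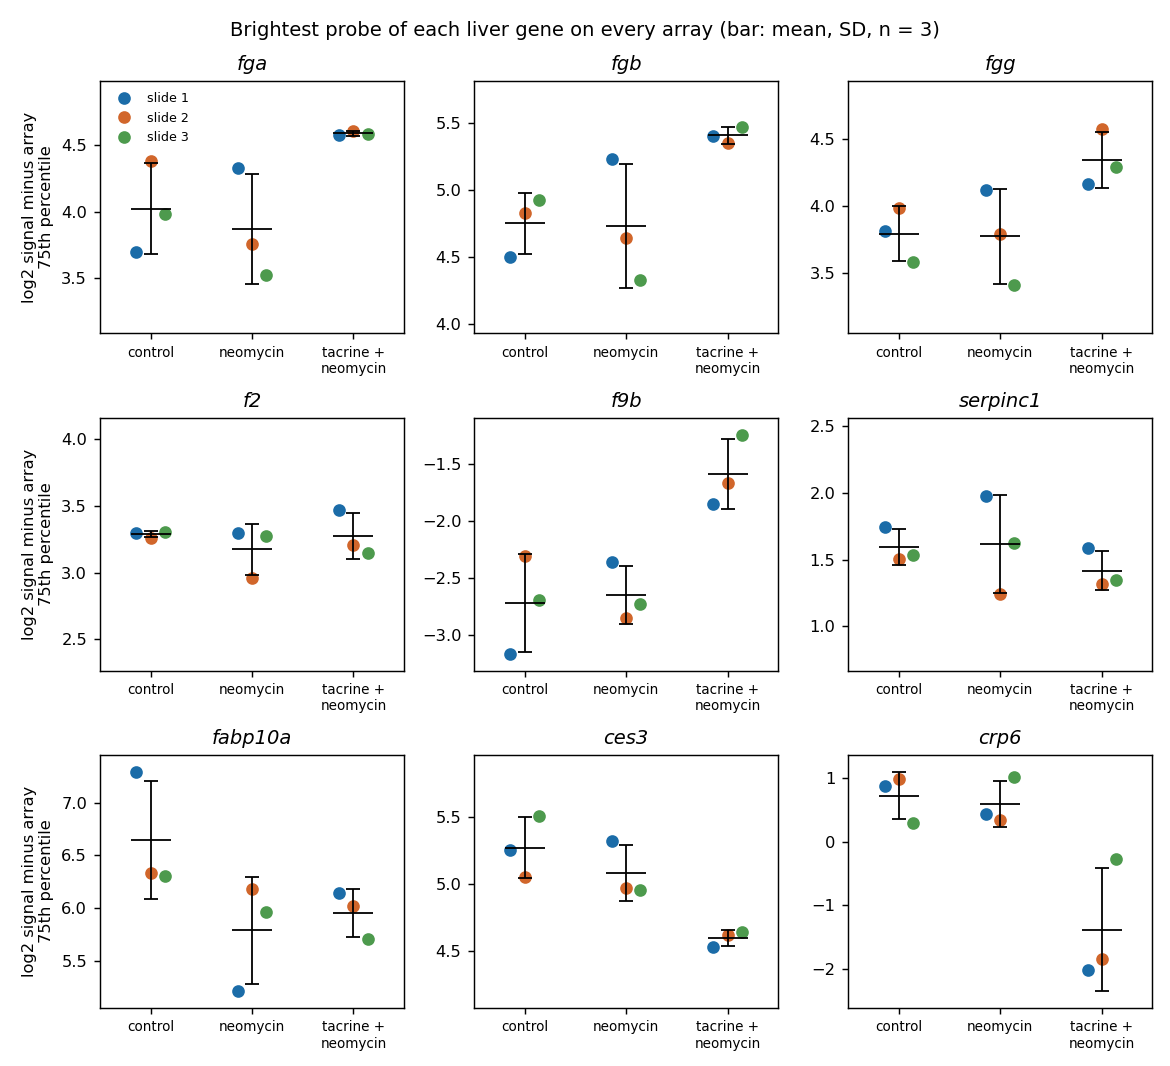
Level of the brightest probe of each of the 9 genes on every array (log2 processed signal minus the array's 75th percentile), with 1 point per array coloured by slide, and the mean and SD of the 3 arrays of a group as a line and bars. The 3 arrays of both compounds lie above all others for fga, fgb, fgg and f9b and below all others for ces3 and crp6, and the scale differs between panels.

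The fibrinogen chains are joined into 1 secreted protein, and a hepatocyte makes all 3 together. In the annotation fga and fgb lie on chromosome 1 with 1 protein-coding gene between them, and fgg lies elsewhere on chromosome 1, between plrg1 and lrata. The brightest probe of fga had levels of 3.70, 4.38 and 3.98 on control arrays 1 to 3, of 4.33, 3.76 and 3.53 on the neomycin arrays, and of 4.58, 4.61 and 4.58 on the arrays of both compounds. The last group lay above the other 6 arrays and spread by an SD of 0.02 (n = 3), against 0.34 in control and 0.41 in neomycin. The difference was 0.56 ± 0.23 (SE) against control (adjusted p = 0.192) and 0.72 ± 0.23 against neomycin (adjusted p = 0.152). The other fga probe differed by 0.83 ± 0.21 against control (adjusted p = 0.0560) and by 0.85 ± 0.21 against neomycin (adjusted p = 0.0763).

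The fgb gene codes for the beta chain. Its brightest probe had levels of 4.50, 4.83 and 4.93 in control, of 5.23, 4.64 and 4.33 in neomycin, and of 5.40, 5.35 and 5.47 with both compounds. Neomycin array 1 came close to the arrays of both compounds, and the other 2 neomycin arrays lay within or below the control range. The difference was 0.66 ± 0.23 against control (adjusted p = 0.126) and 0.68 ± 0.23 against neomycin (adjusted p = 0.162), and the other 2 fgb probes gave 0.67 and 0.47 against control and 0.74 and 0.72 against neomycin. The fgg gene codes for the gamma chain, and its brightest probe had levels of 3.81, 3.98 and 3.58 in control, of 4.12, 3.79 and 3.41 in neomycin, and of 4.17, 4.57 and 4.29 with both compounds. Here too the highest neomycin array was array 1, just under the lowest array of both compounds. The difference was 0.55 ± 0.21 against control (adjusted p = 0.158) and 0.57 ± 0.21 against neomycin (adjusted p = 0.195).

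All 8 fibrinogen probes separated both compounds from control without overlap, and 5 of the 8 separated them from neomycin. Of all tested probes, 12.4% lay wholly above control and 12.0% wholly above neomycin. The 8 probes read only 3 genes and are not independent of each other. Averaged over the 8 probes and set against the control mean, the arrays of both compounds stood at 0.62, 0.58 and 0.62, the control arrays at -0.07, 0.05 and 0.02, and the neomycin arrays at 0.49, -0.25 and -0.41. Neomycin array 1 was thus apart from the other 2 of its group: it was the highest of the 3 on 8 of 8 fibrinogen probes. Over all probes that array correlated with the other neomycin arrays at 0.983 and 0.987, beside 0.983 to 0.990 within the other groups. Without neomycin array 1, 4 fibrinogen probes were called higher with both compounds than with neomycin: 1 of fga by 1.09 (adjusted p = 0.0239), 2 of fgb by 0.98 and 1.09 (adjusted p = 0.0344 and 0.0251) and 1 of fgg by 0.86 (adjusted p = 0.0479). Without it, 2 were also called against control, 1 of fga by 0.83 (adjusted p = 0.0200) and 1 of fgb by 0.67 (adjusted p = 0.0394), where only the estimate of the spread differs. In that fit 433 of the 31671 tested probes were called against neomycin, 312 of them higher. Against control 1847 were called, 1007 of them higher. Neomycin array 1 was picked out by these same fibrinogen probes, so their calls without it add no support. Within slides the brightest probes differed from control by 0.87, 0.22 and 0.60 (fga), 0.91, 0.53 and 0.54 (fgb) and 0.35, 0.59 and 0.72 (fgg) on slides 1 to 3. Against neomycin the slide 1 differences were the smallest, at 0.25, 0.17 and 0.05, and those on slides 2 and 3 lay between 0.71 and 1.15. Whether the neomycin group as such differed from control cannot be read from these values: the differences of the 3 brightest probes were -0.15, -0.02 and -0.02, with 95% intervals of -0.68 to 0.38, -0.53 to 0.49 and -0.49 to 0.45.

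**Figure D2:**
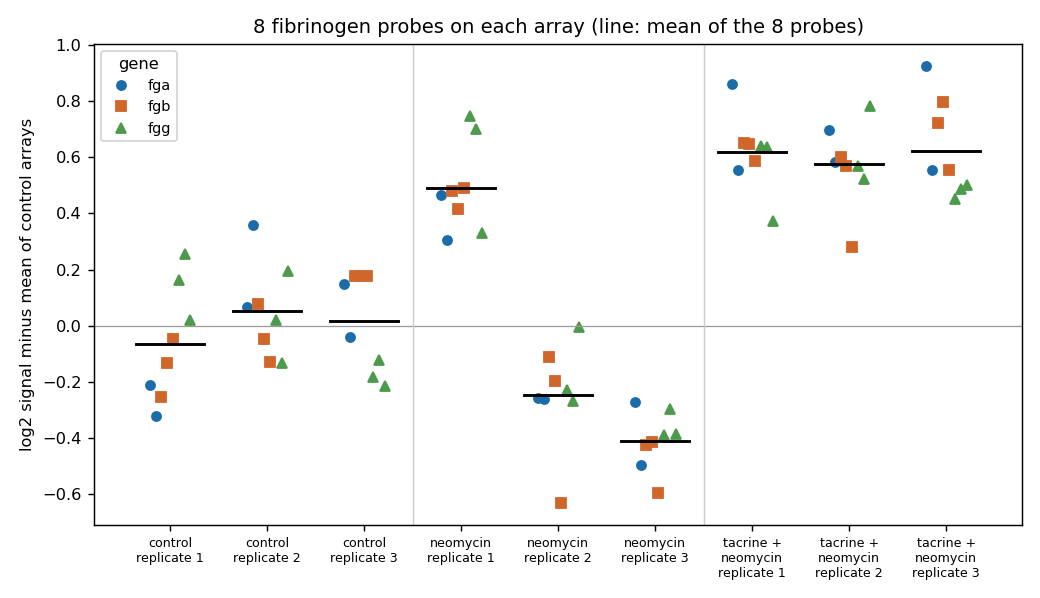
Level of each of the 8 fibrinogen probes on each array minus that probe's control mean (log2), 1 point per probe with the gene by colour and shape, and the mean of the 8 probes as a line. The means are near 0.6 on all 3 arrays of both compounds, near 0 in control, and 0.49, -0.25 and -0.41 on the neomycin arrays.

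Prothrombin, the precursor of thrombin, had a level that varied little. Its brightest f2 probe read 3.29, 3.26 and 3.30 in control, 3.30, 2.96 and 3.27 in neomycin, and 3.47, 3.20 and 3.15 with both compounds. The 3 groups overlapped, and the difference of both compounds from control was -0.01, with a 95% interval of -0.35 to 0.32 (adjusted p = 0.973). All 5 f2 probes differed by -0.07 to 0.02 in that comparison, and by 0.07 to 0.16 against neomycin.

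Factor IX has 2 genes in the zebrafish annotation, f9a and f9b. The f9b probe had levels of -3.17, -2.31 and -2.69 in control, of -2.36, -2.85 and -2.73 in neomycin, and of -1.85, -1.66 and -1.24 with both compounds. The arrays of both compounds lay above all others, and control and neomycin overlapped. Against control f9b rose by 1.14 ± 0.25, or 2.20-fold (adjusted p = 0.0335). Against neomycin the difference was 1.06 ± 0.25 (adjusted p = 0.0641), and neomycin against control gave 0.07 ± 0.25 (adjusted p = 0.976). On slides 1 to 3 the difference from control was 1.32, 0.65 and 1.45, and with slide as a block the adjusted p was 0.0520. The call against control was also lost (adjusted p of 0.0537 to 0.108) without control array 1 or 3, without neomycin array 3 or without any 1 array of both compounds, and with normexp background correction before the percentile scaling the difference was -0.24 ± 0.32.

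The paralog f9a went the other way. Its level fell with both compounds by 1.06 ± 0.23 on the log2 scale against control (adjusted p = 0.0325) and by 1.17 ± 0.23 against neomycin (adjusted p = 0.0361). The f9a arrays read -3.32, -3.70 and -4.14 in control, -3.77, -3.59 and -3.47 in neomycin, and -5.13, -4.64 and -4.57 with both compounds, so the last group lay below the others. With slide as a block these adjusted p values were 0.0558 and 0.0665. Leaving out single arrays, the call against control held without control array 3 or neomycin array 1 or 2 (otherwise adjusted p of 0.0508 to 0.102), and that against neomycin without control array 1 or 3 (otherwise 0.0555 to 0.124). With normexp before the percentile scaling the differences were -1.02 and -0.31. Over the 7 alternative processing settings that held this probe, the difference from control was -1.06 to -0.14 and was called in 3. The difference from neomycin was -1.17 to -0.16 over the same settings and was also called in 3. How far the probe of 1 factor IX gene also binds the transcript of the other was not tested.

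Antithrombin showed no separation of the groups. The brightest serpinc1 probe read 1.75, 1.50 and 1.53 in control, 1.98, 1.25 and 1.62 in neomycin, and 1.59, 1.32 and 1.35 with both compounds. The widest of the groups was neomycin, whose array 1 was again its highest. The difference of both compounds was -0.18 from control (95% interval -0.61 to 0.26, adjusted p = 0.650) and -0.20 from neomycin (-0.64 to 0.24, adjusted p = 0.656).

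Of the other coagulation factors and cofactors, 10 of 18 listed genes were tested, where 5.66% of all genes were called with both compounds against control and 2.76% against neomycin. Against control, 2 rose and 1 fell. The 2 are f3b, a tissue factor gene (tissue factor starts the extrinsic pathway), at 1.57 ± 0.24 (adjusted p = 0.00775), and f2rl1.2, a protease-activated receptor gene, at 1.63 ± 0.29 (adjusted p = 0.0161), while f9a is the gene that fell. With normexp before the percentile scaling the differences of f3b and f2rl1.2 turned to -0.07 and -0.11. Over the 8 alternative processing settings f3b was called in 6 and f2rl1.2 in 7. Against neomycin, f9a alone of the 10 was called. Genes for factors VII and X (f7 and f10) were not called: f7 differed from control by -0.14 and f10 by 0.33. The median of the 10 genes was 0.10 against control.

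Plasminogen (plg), the precursor of the enzyme that cuts fibrin, differed by -0.17 from control and by 0.24 from neomycin, with adjusted p of 0.635 and 0.535.

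**Figure D3:**
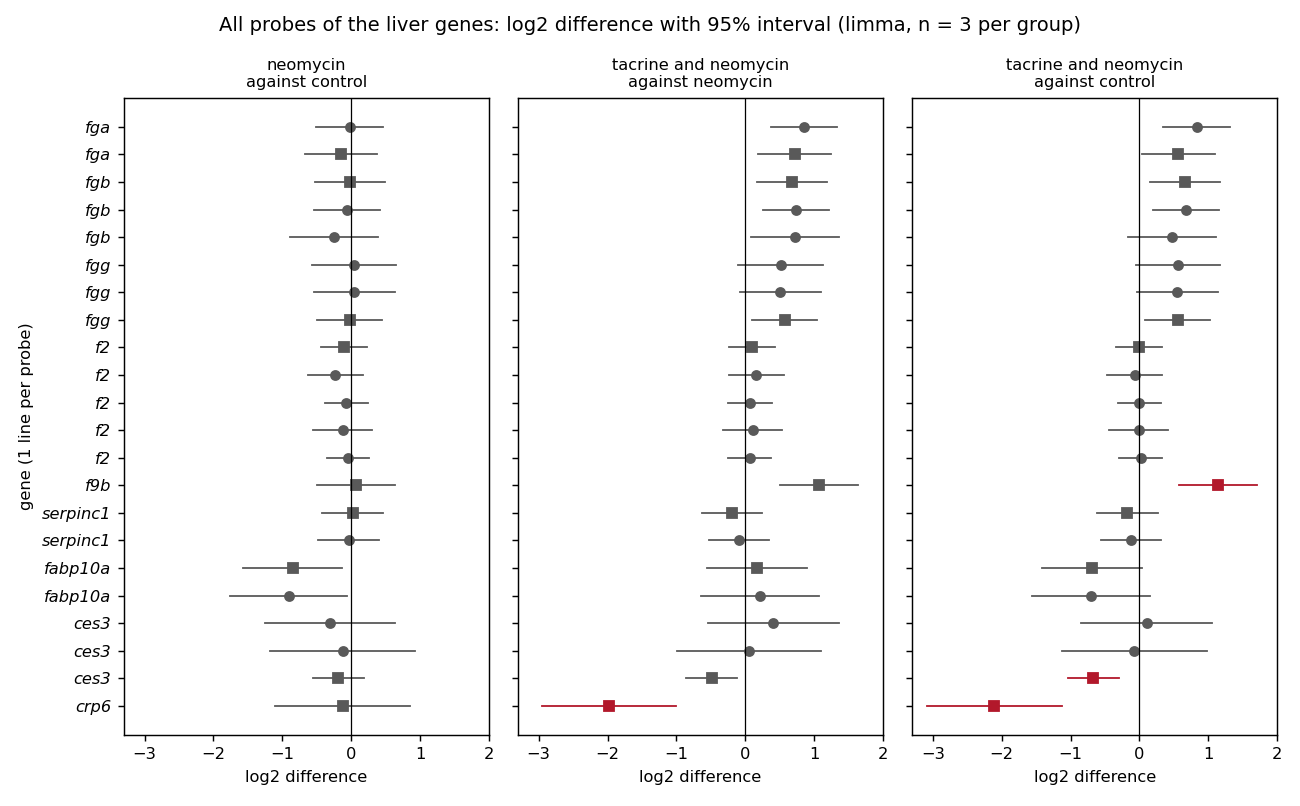
Log2 difference and 95% interval of each of the 22 probes in the 3 comparisons (limma, n = 3 arrays per group), with the brightest probe of a gene as a square and probes called at an adjusted p under 0.05 in red. All 8 fibrinogen probes lie right of 0 in both comparisons with the group of both compounds, f9b lies farthest right, crp6 farthest left, and the 5 f2 probes lie between -0.07 and 0.02 against control.

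The liver fatty acid binding protein fabp10a carries fatty acids and bile acids inside hepatocytes. Its brightest probe had levels of 7.29, 6.33 and 6.31 in control, of 5.22, 6.18 and 5.97 in neomycin, and of 6.14, 6.02 and 5.71 with both compounds. Every array of the neomycin group and of both compounds lay below the lowest control array, with control array 1 the highest and neomycin array 1 the lowest of the 9. The difference was -0.85 ± 0.32 for neomycin against control (adjusted p = 0.449) and -0.69 ± 0.32 for both compounds against control (adjusted p = 0.246), so neither passed, and with normexp before the percentile scaling the differences were -0.01 and 0.22. The slide 1 difference of neomycin from control was -2.07, against -0.15 and -0.34 on slides 2 and 3. The second fabp10a probe gave -0.91 and -0.70. Neomycin array 1 was thus the lowest of its group for fabp10a and the highest for fibrinogen. As the RNA is of whole larvae, fewer cells of a type and less RNA per cell cannot be told apart.

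Of 12 hepatocyte markers, 8 had a probe (fabp10a among them), and all 8 were well above background on all 9 arrays. None was called by limma in any comparison (1 of 8 had an unadjusted p under 0.05 for neomycin against control, 1 for both compounds against neomycin and 2 against control). In these 3 comparisons 0.159%, 2.76% and 5.66% of all genes were called. At an unadjusted p under 0.05 the share was 9.03% of all probes for neomycin against control. That share is not given here for the comparisons with both compounds. With both compounds 6 of 8 had a negative difference against control and 4 of 8 against neomycin, beside 55.6% and 53.7% of all tested genes. The summed level of the 8 markers, in multiples of the array's 75th percentile signal, was 421.5 to 620.1 in control, 390.4 to 411.2 in neomycin and 355.5 to 385.7 with both compounds. The other tissues of the larva were present as well: all markers with a probe were well above background on all 9 arrays, 9 for exocrine pancreas, 7 for intestine, 6 for erythroid cells, 6 for skeletal muscle and 2 for the yolk syncytial layer. A lower sum with both compounds than in control was not particular to hepatocytes. It was 728.8 to 810.9 beside 1128.7 to 1406.7 for exocrine pancreas, and 782.9 to 984.7 beside 1057.7 to 1271.5 for skeletal muscle. The sums of both compounds and control overlapped for intestine (118.15 to 133.59 beside 133.4 to 214.02), erythroid cells and the yolk syncytial layer. Nor was it particular to the group of both compounds. With neomycin alone the sum was 848.54 to 982.82 for exocrine pancreas and 838.55 to 1021.8 for skeletal muscle, also below control. For erythroid cells it was 257.9 to 290.12 beside 353.22 to 463.45. Neomycin and control overlapped for intestine and the yolk syncytial layer. The part of marker levels in the differences of single genes was not tested.

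Carboxylesterases split esters of fats and drugs, and ces3 codes for 1 of them. The brightest ces3 probe read 5.25, 5.05 and 5.51 in control, 5.32, 4.97 and 4.95 in neomycin, and 4.53, 4.62 and 4.64 with both compounds. The last group lay below the other 6 arrays. Against control ces3 fell by 0.67 ± 0.16 on the log2 scale, or 1.59-fold (adjusted p = 0.0462), and against neomycin the difference was -0.49 ± 0.16 (adjusted p = 0.166). On slides 1 to 3 the difference from control was -0.72, -0.43 and -0.87, and with slide as a block the adjusted p was 0.0536. Leaving out an array kept the call only without neomycin array 1 (adjusted p = 0.0411); without any other single array it was 0.0533 to 0.133. With normexp before the percentile scaling the ces3 difference was 0.36 ± 0.48. The 2 dimmer ces3 probes differed from control by 0.10 and -0.07, with SDs of 0.97 and 1.11 within the group of both compounds, whose array 1 was their highest array, so the probes of this gene disagree.

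Among 11 other tested carboxylesterase, lipase and fatty acid binding protein genes, 1 was called with both compounds against control, where 5.66% of all genes were. It is cel.2, a bile salt-activated lipase gene, which fell by 0.95 ± 0.21 (adjusted p = 0.0323) and differed by 0.19 with normexp before the percentile scaling. None of the 11 was called by limma against neomycin (1 had an unadjusted p under 0.05), where 2.76% of all genes were called. All 11 had a negative difference from control, with a median of -0.31, beside 55.6% and -0.05 over all tested genes. Transferrin hands iron to cells, and 13 other iron handling genes were tested. None was called by limma against control (5 had an unadjusted p under 0.05), and slc40a1, which codes for the iron exporter ferroportin, fell by 0.78 ± 0.15 against neomycin (adjusted p = 0.0364, and 0.0561 with slide as a block). In these 2 comparisons 5.66% and 2.76% of all genes were called. Their shares of all genes at an unadjusted p under 0.05 are not given here, so the counts at that threshold cannot be weighed.

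C-reactive protein is a pentraxin that binds microbes and damaged cells, and zebrafish have a family of such genes. The crp6 probe had levels of 0.88, 0.99 and 0.30 in control, of 0.44, 0.34 and 1.01 in neomycin, and of -2.03, -1.85 and -0.28 with both compounds. Arrays 1 and 2 of both compounds lay far below all others and array 3 between. Against control crp6 fell by 2.11 ± 0.43 on the log2 scale, or 4.30-fold (adjusted p = 0.0262), and against neomycin by 1.98 ± 0.43, or 3.95-fold (adjusted p = 0.0490). Neomycin differed from control by -0.12 ± 0.43 (adjusted p = 0.976). On slides 1 to 3 the differences were -2.91, -2.84 and -0.58 from control and -2.47, -2.19 and -1.29 from neomycin. With slide as a block the adjusted p of crp6 was 0.0388 against control and 0.0672 against neomycin. Over the 8 alternative processing settings its difference from control was -2.11 to -1.23 and was called in 6. The difference from neomycin was -1.98 to -1.12 and was called in 3 of the 8. Without control array 1 or 2, or array 1 or 2 of both compounds, the adjusted p against control was 0.0741 to 0.0841. Against neomycin the call held only without array 3 of both compounds, where crp6 fell by 2.53 (adjusted p = 0.00806), and without any other single array the adjusted p was 0.0634 to 0.161.

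The other C-reactive protein genes with a tested probe were not called. With both compounds, crp2 differed from control by -0.65 ± 0.20 (adjusted p = 0.0979), crp3 by -0.19 ± 0.19 and crp4 by -0.20 ± 0.19. How far the crp6 probe also binds the transcripts of its relatives was not tested.

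**Figure D4:**
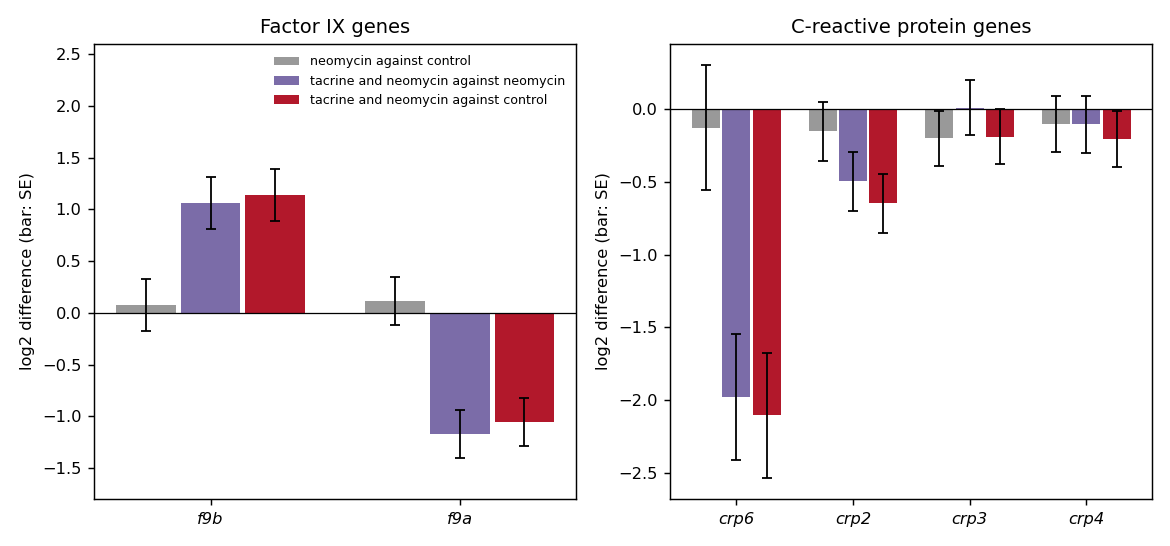
Log2 difference (bars, with the SE as error bars) of the 2 factor IX genes and of 4 C-reactive protein genes in the 3 comparisons, n = 3 arrays per group. With both compounds f9b stands at 1.06 and 1.14 and f9a at -1.17 and -1.06, and crp6 is at -1.98 and -2.11 while crp2, crp3 and crp4 stay between -0.65 and 0.01.

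The list of acute phase and C-reactive protein genes held 13 tested members besides crp6. With both compounds 5 of them rose against neomycin and 6 against control, and none fell, where 2.76% and 5.66% of all genes were called. Their median difference was 0.93 and 1.39. The members that rose are signalling genes and transcription factors. The feedback inhibitors of cytokine signalling socs3a and socs3b rose by 2.61 ± 0.17 (adjusted p = 0.000439) and 1.84 ± 0.18 (adjusted p = 0.00178) against neomycin, and the C/EBP genes cebpd and cebpb by 1.12 ± 0.13 (adjusted p = 0.00485) and 0.93 ± 0.20 (adjusted p = 0.0459). The transcription factor stat3 rose by 1.01 ± 0.17 (adjusted p = 0.0201). The sixth, nfkbiaa, which codes for an inhibitor of NF-kappaB, rose by 1.54 ± 0.19 against control (adjusted p = 0.00281). Of the members that code for secreted proteins, hamp (hepcidin) had the largest difference of the list against neomycin, at 3.55 ± 0.80, and missed the threshold (adjusted p = 0.0546); against control it was 1.65 ± 0.80 (adjusted p = 0.262). The cytokine gene il1b missed it against control, at 2.09 ± 0.53 (adjusted p = 0.0535), and differed by 0.42 ± 0.53 from neomycin. Serum amyloid A (saa) differed by -0.74 ± 0.70 from control and by -0.57 ± 0.70 from neomycin (adjusted p of 0.583 and 0.726). Neomycin arrays of socs3a read 2.65, 2.47 and 2.11, between control (1.31, 1.396 and 1.21) and both compounds (5.14, 4.85 and 5.05), and neomycin against control was not called for it (2.15-fold, adjusted p = 0.0597).

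Transcription factors of hepatocytes were tested for 19 genes. With both compounds 2 rose against neomycin and 3 against control, and none fell, where 2.76% and 5.66% of all genes were called. The C/EBP gene cebpa, which in mammals drives many plasma protein genes, rose by 1.50 ± 0.22 against neomycin (adjusted p = 0.00975) and by 1.81 ± 0.22 against control (adjusted p = 0.00234). The forkhead gene foxa3 rose by 0.64 ± 0.13 (adjusted p = 0.0365, and 0.0501 with slide as a block) and 0.67 ± 0.13 (adjusted p = 0.0202), and hhex, which acts in early liver formation, rose by 0.84 ± 0.17 against control (adjusted p = 0.0237). The median of the 19 was 0.08 against neomycin and 0.16 against control.

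Of 22 other tested plasma carriers and secreted liver proteins, 1 rose and 3 fell against control, where 5.66% of all genes were called. The difference was negative for 18, or 81.8%, beside 55.6% of all tested genes, with a median of -0.17 beside -0.05. The gene igfbp1a, which codes for a binding protein of insulin-like growth factors, rose by 2.30 ± 0.21 (adjusted p = 0.000654), and it was also the 1 list member called in neomycin against control, at 1.95 ± 0.21 (adjusted p = 0.0142), where 0.159% of all genes were called. The fetuin gene ahsg2 fell by 1.19 ± 0.29 (adjusted p = 0.0456), itih3b.1, an inter-alpha-trypsin inhibitor heavy chain gene, by 1.47 ± 0.30 (adjusted p = 0.0246), and the vitronectin gene vtna by 0.69 ± 0.16 (adjusted p = 0.0428). With normexp before the percentile scaling vtna differed by 0.21, and with slide as a block the adjusted p of ahsg2 was 0.0703. Like crp6, ahsg2 and itih3b.1 were lowest on arrays 1 and 2 of both compounds: ahsg2 read -0.74, -0.98 and 0.21, and itih3b.1 read -0.94, -0.99 and -0.09. Against neomycin igf1 rose by 1.19 ± 0.21 (adjusted p = 0.0240), with 1 of the 3 neomycin arrays well above background for it, and the difference was -0.01 with normexp before the percentile scaling.

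None of the 15 tested complement genes was called by limma in any comparison. Of all genes, 0.159% were called for neomycin against control, and with both compounds 2.76% against neomycin and 5.66% against control. None of 15 lies near those shares. An unadjusted p under 0.05 was found for 2 in each comparison with control and for 3 in the comparison of both compounds with neomycin. For neomycin against control 9.03% of all probes had one, and that share is not given here for the comparisons with both compounds. For neomycin against control the smallest p of the list belonged to c1qc, a gene of the first complement component, at 1.29 ± 0.29 (adjusted p = 0.186). With both compounds it belonged to cfd, complement factor D, at -0.52 ± 0.14 against control (adjusted p = 0.0617; 0.37 with normexp before the percentile scaling) and -0.56 ± 0.14 against neomycin (adjusted p = 0.0755). Of 33 tested liver enzymes of amino acid, glucose and purine metabolism, 2 were called with both compounds against neomycin and 1 against control. The shares over all genes were 2.76% and 5.66%. The gene cbsb (cystathionine beta-synthase) rose by 0.86 ± 0.15 against neomycin (adjusted p = 0.0219) and by 0.85 ± 0.15 against control (adjusted p = 0.0149). The glucose-6-phosphatase gene g6pc1a.2 rose by 1.25 ± 0.27 against neomycin (adjusted p = 0.0459), a call that held in 1 of the 9 fits without 1 array. For this gene neomycin alone differed from control by -1.24 ± 0.27 (adjusted p = 0.173). Both compounds differed from control by 0.01 (adjusted p = 0.991). The median of the 33 was 0.13 against neomycin and 0.01 against control.

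**Figure D5:**
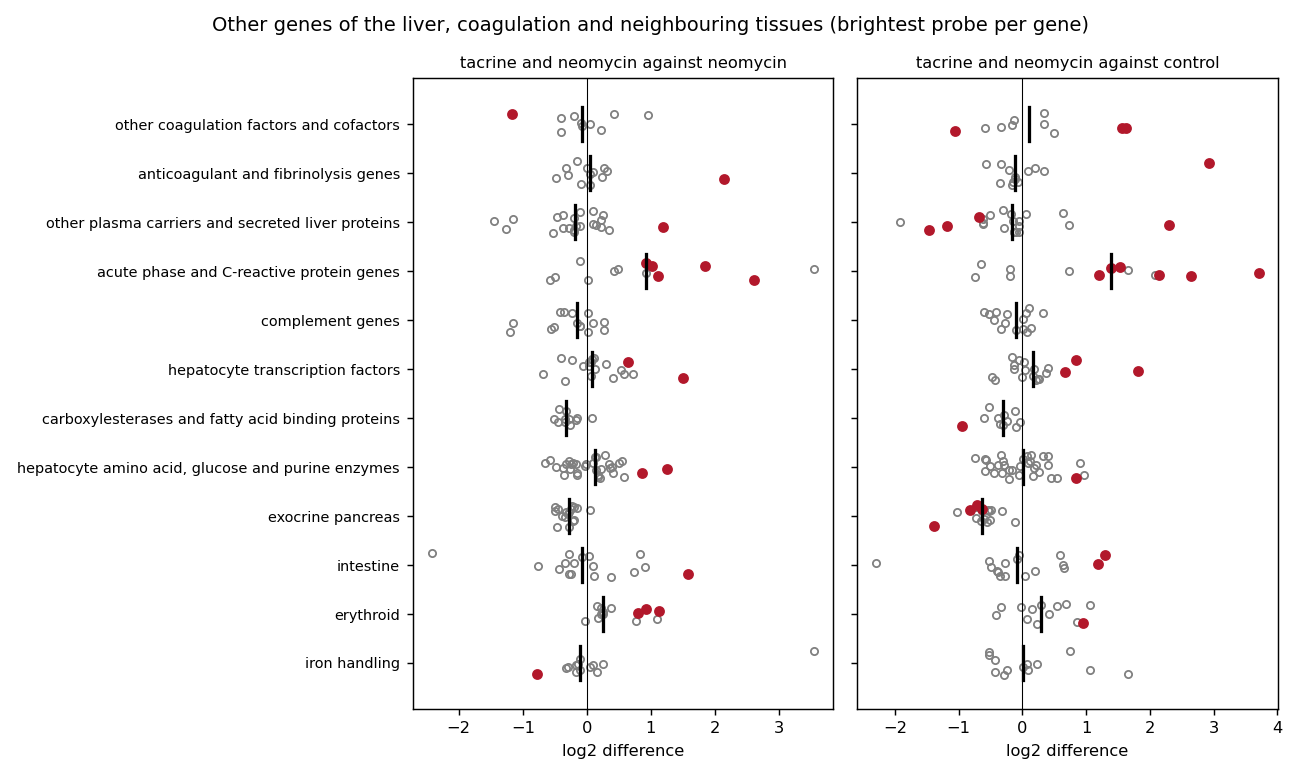
Log2 difference of every tested gene of 12 lists (brightest probe, 1 point per gene, called genes in red, median as a black line) for both compounds against neomycin and against control. The acute phase list has the highest median, at 0.93 and 1.39, and the other lists lie between -0.63 and 0.29.

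The profile of the 9 genes over the arrays, as the mean of their standardized levels, was 0.10, 0.18 and 0.04 in control, 0.38, -0.68 and -0.46 in neomycin, and 0.23, 0.06 and 0.14 with both compounds. It was thus low on neomycin arrays 2 and 3 and highest on neomycin array 1. Of 10576 other genes, those most like it by Pearson's r over the 9 arrays were hibch (0.94), rbm14b (0.94), lxn (0.94), wdr74 (0.93), org (0.91) and rbm34 (0.89), and the most opposed were aep1 (-0.96), or70a2 (-0.94) and msx2b (-0.93). These r values describe 9 arrays that share groups and slides, and the genes were the extremes of all those compared. The profile averages genes that did not move together. Over the 9 arrays crp6 and fgb correlated at -0.75 and ces3 and f9b at -0.73, beside 0.94 for fga and fgb. On neomycin array 1, where the profile was highest, fabp10a had its lowest level.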

How the data were processed

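The authors deposited 1 scanner file per array with linear intensity values per spot, processed by Agilent Feature Extraction (10.1.1.1 per the file headers, 8.0 per the submitters' processing notes), and quality marks of 0 or 1, another unit, per the file headers. Beside these files, the authors deposited a log2 matrix of 25265 probes (column medians 7.11 to 7.12, r with the own array 0.981 to 0.986). How it was scaled and centred is not given in the sources used here, and it served as an alternative only. The array design dates to an older genome build than the RefSeq names (assembly GRCz12tu) and coordinates are left out.

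The log2 processed signals of repeated spots were averaged, then lowered by their array's 75th percentile. A probe was tested if at least 3 of 9 arrays marked it as well above background, which held for 31671 of the 43603; 25173 carried a gene symbol, and no probe was saturated. All 3 groups were fitted together with limma 3.58.1 in R 4.3.3 (lmFit, contrasts, eBayes, two-sided; 6 residual and 3.12 prior degrees of freedom), with p-values adjusted by Benjamini-Hochberg over all tested probes. The fit was also run on simulated data with independent noise on each array. No slide effect was simulated, so that run cannot speak to deviations shared within a slide. The brightest probe, by its mean over the 9 arrays, stands for a gene. The precision is limited by 3 arrays per group: the median SE of a difference was 0.20.

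Alternatives were normexp background correction (offset 50), quantile normalization, both, no filter or a filter on all 9 arrays, the authors' matrix, slide as a block, a trend with robust fitting, and leaving out each array. Deviations from group means correlated at -0.06 to 0.34 between arrays of the same number and slide in different groups. Between arrays of different numbers and groups they correlated at -0.38 to 0.17. Arrays of a slide thus shared part of their deviations. The slide is given as a batch, and the main fit has no term for it. All genes of interest are named. From each list of other genes, up to 4 called members with the smallest p were picked per comparison (the first alone where none was called). Not all of those picked are named, and further members are named after their values were seen. Some called members of these lists are not reported here. The lists were written by hand, 11 members needed an older symbol for the match, and the genes of interest and the lists were chosen with earlier results of these data known. Of each probe only its gene name is used, and its sequence was not used here.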

Additional observations from a re-analysis of the deposited data

How the results depend on the processing

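Normexp background correction followed by the percentile scaling changed the values most, and normexp with quantile normalization changed them less. With normexp before the percentile scaling, neomycin against control gave 0.75 for ces3, 0.81 for f2, -0.62 for f9b, 0.86 for fga, 1.08 for fgb and 0.97 for fgg (median of the 9 genes 0.75), and both compounds against control gave 0.36 for ces3 (also the median), 1.00 for f2, -0.24 for f9b, 0.22 for fabp10a and 0.32 for serpinc1, all opposite in sign to the main values. No probe of the 22 was called in either comparison with both compounds, and the SE of ces3 was 0.48 against 0.16; the cause was not tested. Over all probes 59 were then called against control, 59 of them higher, against 1003 of 1875. With normexp and quantile normalization together it was 715 of 1099. Differences near 0 in neomycin against control changed sign under quantile normalization (fgb 0.043, fgg 0.0058), normexp with it (fgb 0.048, fgg 0.036, serpinc1 -0.015) and the authors' matrix (fgb 0.042, fgg 0.0047). Fibrinogen was higher with both compounds than in either other group on all 8 probes under all 8 alternatives and without any single array. With normexp the differences of the 3 brightest probes from control grew to 1.68 (fga), 1.75 (fgb) and 1.56 (fgg), with SEs of 0.64, 0.58 and 0.63. This growth was not particular to fibrinogen: the f2 difference from control moved from -0.01 to 1.00 and that of ces3 from -0.67 to 0.36.

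Of the 22 probes, 1 was called with both compounds against neomycin. The count was 0 with normexp, normexp and quantile normalization, no filter, the authors' matrix and the replicate block, 2 with the filter on all 9 arrays (crp6 and f9b), 3 with trend and robust fitting (crp6, f9b and fga), and 0 to 4 without single arrays (4, all fibrinogen, without neomycin array 1). Against control the count was 3, and 0 with normexp, 1 with normexp and quantile normalization (f9b), 1 with no filter (crp6), 1 with the replicate block (crp6), and 0 to 5 without single arrays (5 without neomycin array 1). Without single arrays, differences that changed sign ranged from -0.15 to 0.28 (f9b), -0.34 to 0.0075 (crp6), -0.38 to 0.029 (fga), -0.27 to 0.18 (fgb), -0.20 to 0.16 (fgg) and -0.16 to 0.21 (serpinc1) for neomycin against control, from -0.12 to 0.36 (fabp10a) and -0.011 to 0.16 (f2) for both compounds against neomycin, and from -0.11 to 0.050 (f2) against control. The replicate block changed the calls of f9b, ces3 and crp6 given above, and no other of the 9 genes; of the other genes named, it ended the calls whose blocked values are given beside them. Calls of those genes held in 0 (ela2) to 9 of the 9 fits that each left out 1 array, and in all 9 for f3b, igfbp1a, cebpa, socs3a, socs3b, cebpd, nfkbiaa, cebpb and stat3 with both compounds against control. Against neomycin, the comparison for which cebpb and stat3 are given above, their calls held in only 2 and 5 of the 9 fits.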

Other observations

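Lists of genes of other tissues were tested the same way. Beside the calls below, 5.66% of all genes were called with both compounds against control and 2.76% against neomycin. Among 17 tested genes of the exocrine pancreas, those that fell with both compounds against control included the elastase genes ela2l by 0.83 ± 0.15 (adjusted p = 0.0171), ela2 by 0.71 ± 0.17 (adjusted p = 0.0465), and the trypsin gene prss1 by 0.63 ± 0.15 (adjusted p = 0.0395). All 17 had a negative difference from control, with a median of -0.63, beside 55.6% and -0.05 over all tested genes. None of the 17 was called by limma against neomycin (2 had an unadjusted p under 0.05, a threshold whose share over all genes is not given here). The genes ela2l, ela2 and prss1, read with normexp before the percentile scaling, differed by -0.02, 0.12 and 0.23, and with slide as a block the adjusted p of prss1 was 0.0541. Of 17 tested intestinal genes, alpi.2 (an alkaline phosphatase) and slc10a2 (a bile acid transporter) rose against control 2.46-fold (adjusted p = 0.0173) and 2.28-fold (adjusted p = 0.0153). Their log2 differences shrank to 0.42 and 0.03 under normexp before the percentile scaling, and each was called in 7 of the 8 alternative processing settings. The gene apoa4a rose against neomycin by 1.59 ± 0.34 (adjusted p = 0.0448, and 0.0569 with slide as a block), and its difference was 0.71 with normexp. Of 13 tested erythroid genes, the transcription factors gata1a and klf1 and the anion exchanger slc4a1a rose against neomycin by 1.12 ± 0.24, 0.80 ± 0.17 and 0.92 ± 0.19 (adjusted p of 0.0445, 0.0478 and 0.0429), and gata1a rose against control by 0.96 ± 0.24 (adjusted p = 0.0490). None of these erythroid calls held with slide as a block: the adjusted p values were 0.0581, 0.0596 and 0.0661 against neomycin and 0.0541 against control. Under normexp the differences from neomycin were 0.29, 0.19 and 0.73, and the gata1a difference from control was -0.45.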
